A study of Mus musculus with 10 samples.

Results

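miR-34a and miR-744 are 2 of the 285 mature miRNAs quantified by small RNA sequencing in mouse liver. Both were taken by name from the table, with the species prefix removed, and were chosen by measured values, because their levels varied widely between livers of 1 genotype and shifted in opposite directions in replicate 1 of both genotypes. Spread, replicate 1 shift and the genotype difference of these miRNAs all took part in that choice, so they are described here, with no p-value. Where members that pass a threshold are counted, the count stands beside that of all miRNAs and nothing is read from it. The study asked how liver miRNAs change when Tsc1 is lost, a gene whose product holds the growth kinase complex mTORC1 in check. It compared 5 livers of littermate controls (control) with 5 livers of L-Tsc1KO mice (Tsc1 mutant), all 14 weeks old and fed freely. The labels give neither the Cre driver nor a batch or date, and Tsc1 messenger RNA was not analysed here. In bulk liver RNA, fewer cells of a type and less RNA per cell cannot be told apart.

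A miRNA guides the Argonaute protein to messenger RNAs that pair with its seed, the bases near its 5′ end, and lowers their output. miR-34a is a textbook target gene of the tumour suppressor p53 and represses cell cycle and survival genes. In liver it is known for its rise in fatty liver disease and for repressing Sirt1, a deacetylase of metabolic regulators. miR-744 is made from an intron of Map2k4, a kinase of the stress-activated JNK pathway, and has been described as a repressor of TGF-beta 1, the main profibrotic cytokine of liver.

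The mature sequences are shown with the seed, bases 2 to 8, in capitals, because the seed is the part that sets which messenger RNAs each miRNA can pair with. They are from RefSeq (GRCm38.p6). The table's plain names carry no arm, and in the older naming the plain name of both miRNAs stood for the 5p arm.
miR-34a-5p: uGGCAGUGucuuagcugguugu
miR-34b-5p: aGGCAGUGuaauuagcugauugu
miR-449a-5p: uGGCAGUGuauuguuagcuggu
miR-449c-5p: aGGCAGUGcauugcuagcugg
miR-744-5p: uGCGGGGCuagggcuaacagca
The seed of miR-34a-5p occurred in 4 of the 1679 mature sequences used, the 4 shown first, and pairs with CACUGCC in a messenger RNA. miR-34c is known to belong to the same seed family, and its sequence was not used here. The seed of miR-744-5p occurred in 1 of 1679, its own, and pairs with GCCCCGC. The members also differ in composition. miR-744-5p is 63.6% G and C with 9 G among its 22 bases, and 82.4% of the mature sequences have a lower GC share. miR-34a-5p is 50.0% G and C, where 38.4% have a lower one.

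The hairpins are shown with both mature arms in capitals, to place the arms that the plain names do not separate.
Mir34a: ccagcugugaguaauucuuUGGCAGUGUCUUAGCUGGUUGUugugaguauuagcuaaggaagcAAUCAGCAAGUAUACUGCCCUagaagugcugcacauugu
Mir744: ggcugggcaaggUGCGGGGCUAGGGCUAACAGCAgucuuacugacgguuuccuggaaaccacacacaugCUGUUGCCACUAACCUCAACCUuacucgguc
Mir34a lies at chr4:150068454-150068555 on the plus strand (GRCm38). It is outside protein-coding genes in the GENCODE M21 annotation, and its 3′ end overlaps an exon of the unclassified transcript Gm37795. Mir744 lies at chr11:65734733-65734832 on the minus strand, in an intron of Map2k4 and in the same orientation as its host. Among the RefSeq hairpins, 0 others lie within 10000 bases of either, so neither has a listed cluster partner.

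The hepatocyte miRNA miR-122 was the most abundant miRNA in 10 of 10 libraries, at 22.8% to 37.8% of the normalised reads. The libraries held between 6228497 and 12129069 miRNA reads. Control replicate 1, with 10677652 reads, and Tsc1 mutant replicate 1, with 10522653, lay inside that range but deviated together in miRNA composition. Across the 285 miRNAs, their deviations from their genotype means had a correlation of 0.81. Results are therefore given with and without these 2 libraries.

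miR-34a was low in most control livers and high in 1. Its level in control replicates 1 to 5 was 537, 41.2, 26.7, 33.6 and 52.3 normalised reads, that is, reads after the authors' scaling by 1 factor per library. In Tsc1 mutant replicates 1 to 5 it was 503, 113, 207, 58.8 and 145 normalised reads. Replicate 1 was the highest library of both genotypes. The other 4 controls all lay below the other 4 mutants, whereas control replicate 1 lay above every mutant, so the 2 groups of 5 overlap. The genotype means were 138 ± 223 in controls and 205 ± 175 normalised reads in mutants (SD, n = 5 each).

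miR-744 ran the other way. Its level in control replicates 1 to 5 was 39.2, 705, 756, 1049.8 and 349.9 normalised reads. In Tsc1 mutant replicates 1 to 5 it was 33.9, 541, 169, 459 and 351 normalised reads. Replicate 1 was the lowest library of both genotypes, and the groups overlap with or without it. The genotype means were 580.0 ± 391 in controls and 311 ± 208 normalised reads in mutants (SD, n = 5 each).

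**Figure D1:**
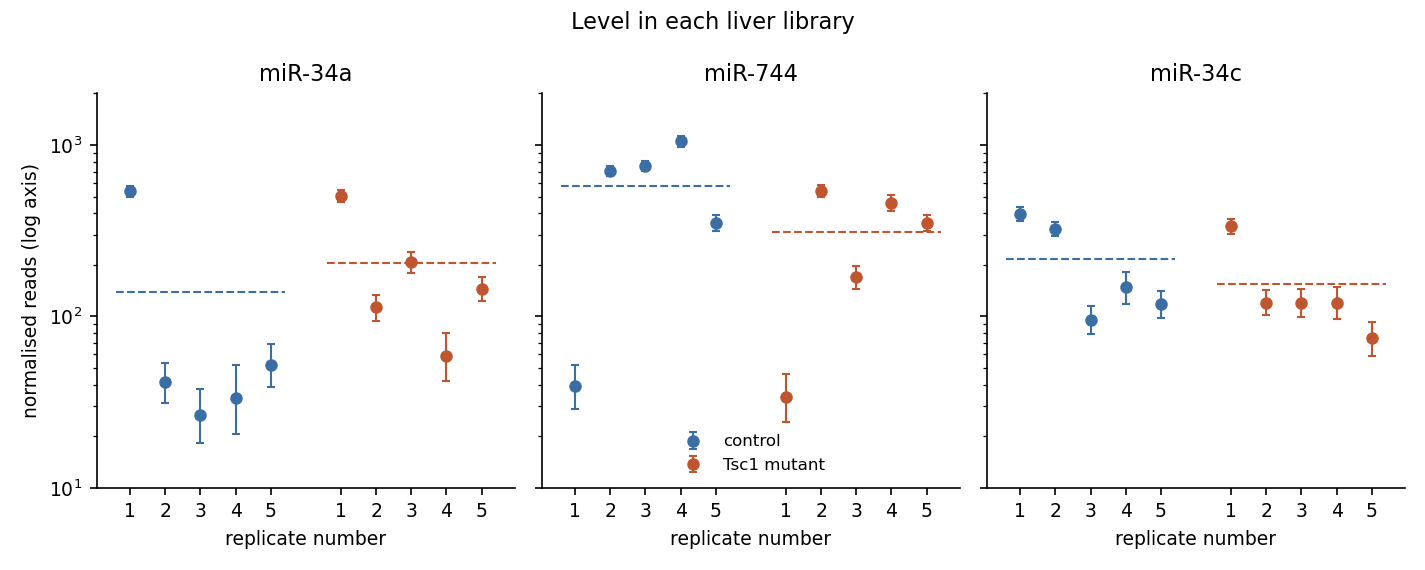
Normalised reads (log axis) of miR-34a, miR-744 and the related miR-34c in each library, by replicate number, with controls in blue and Tsc1 mutants in orange. Error bars are 95% exact Poisson intervals, which cover counting error only, and dashed lines are genotype means of 5 libraries; replicate 1 is the highest library of both genotypes for miR-34a and the lowest for miR-744.

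The spread between livers is set beside counting error here. miR-34a rested on 20 to 672 reads per control library and 41 to 579 per mutant library, and miR-744 on 49 to 992 and 39 to 637. The lowest of these, 20 reads of miR-34a in control replicate 4, stand for 33.6 normalised reads with a 95% exact Poisson interval of 20.6 to 52.0. No molecular identifiers are described, so reads may not be independent molecules and such intervals cover counting error only. The coefficient of variation of miR-34a between controls was 161%, where counting alone gives 7.87%, and between mutants it was 85.2% against 6.81%. For miR-744 it was 67.5% in controls against 4.44% from counting, and 66.9% in mutants against 5.89%. Without replicate 1, miR-34a in controls varied by 28.5% against 16.6% from counting. In the other 4 mutants it varied by 47.4% against 8.89%.

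Compared with all 285 miRNAs, both members were among the most variable. The SD within genotype, on the log2(normalised value + 1) scale used for all log2 values here, was 1.77 for miR-744 and 1.47 for miR-34a, ranks 3 and 7 of 285, where the median was 0.44. Without both replicates 1 the SDs were 0.70 and 0.61, ranks 34 and 50, where the median was 0.31. Most of their spread thus lay in these 2 libraries. The miRNAs next to them in mean level varied less: miR-342-3p and miR-15b, next above and below miR-744, had SDs of 0.27 and 0.49. miR-337-5p and miR-214, next to miR-34a, had SDs of 0.60 and 0.52.

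**Figure D2:**
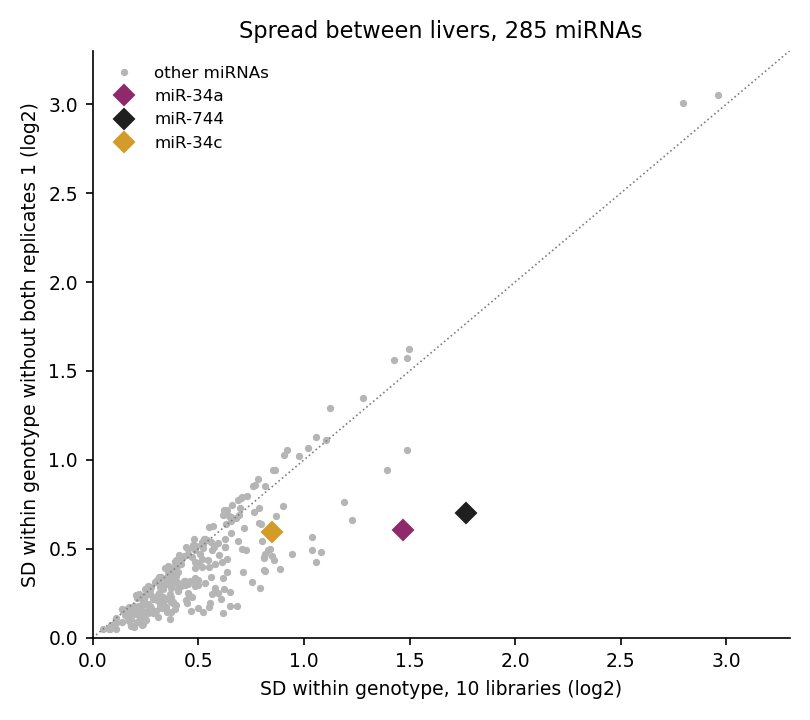
SD within genotype of each of 285 miRNAs (log2 scale) with all 10 libraries, on the x axis, and without both replicates 1, on the y axis; the dotted line marks equal values. miR-744 and miR-34a fall from 1.77 and 1.47 to 0.70 and 0.61, well below the dotted line.

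Replicate 1 set miR-34a and miR-744 at the 2 ends of the table in controls and in the mean of both genotypes. In controls, miR-34a in replicate 1 was 14.0-fold the mean of the other 4 libraries, 38.5 normalised reads. In mutants it was 3.84-fold their mean of 131. miR-744 in replicate 1 was 18.3-fold below the mean of 715 in the other controls and 11.2-fold below the mean of 380.1 in the other mutants. On the log2 scale the shift of replicate 1 from the mean of the other 4 was 3.81 in controls and 2.07 in mutants for miR-34a, and -4.05 and -3.33 for miR-744. In controls and averaged over genotypes, miR-34a had the highest shift of the 285 miRNAs and miR-744 the lowest. In mutants alone, miR-145 was the highest, at 2.33, and miR-720 the lowest, at -3.327 against -3.325 for miR-744. The shifts of miR-34a and miR-744 are part of the rule that chose the 2, so the ranks are a description.

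Other miRNAs shifted in these libraries too. Replicate 1 lay over 2-fold above the mean of the others in both genotypes for 16 of 285 miRNAs, or 5.61%, and over 2-fold below it for 20, or 7.02%. For 231 of 285 the shift had the same sign in both genotypes. The next highest after miR-34a were miR-145, at 2.71 in controls and 2.33 in mutants, miR-19a at 2.96 and 1.75, and miR-326 at 2.61 and 1.73. The next lowest after miR-744 were miR-720 at -2.60 and -3.33, miR-543 at -3.06 and -2.12, and miR-455 at -2.43 and -1.98. These 6 were named after their values were seen. The 9 miRNAs of the let-7 family, regulators of developmental timing and growth, all lay lower in replicate 1 of both genotypes, with median shifts of -1.79 and -1.43.

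**Figure D3:**
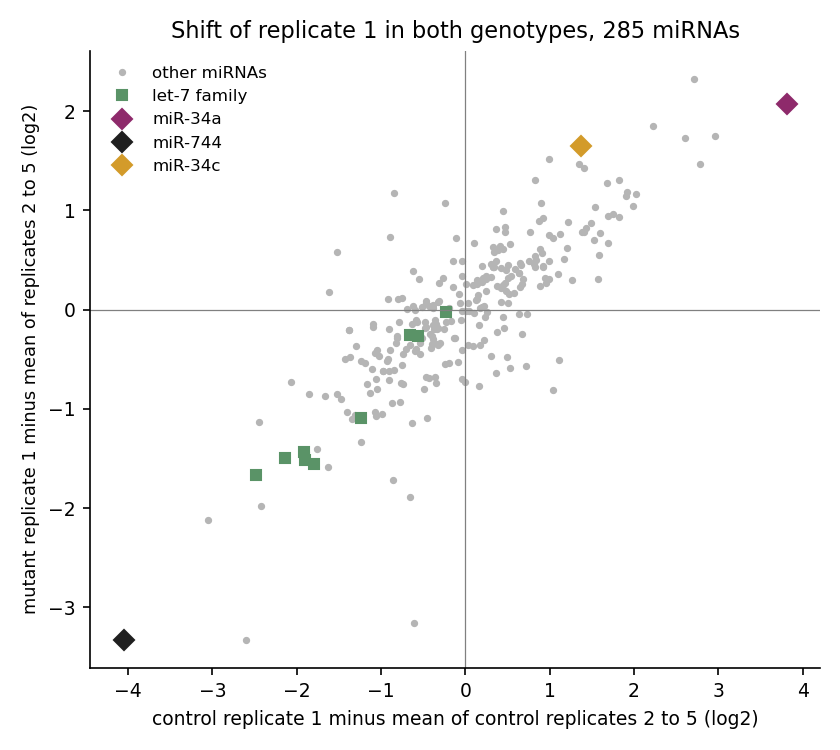
Shift of replicate 1 from the mean of replicates 2 to 5 (log2 scale) in controls, on the x axis, and in Tsc1 mutants, on the y axis, for 285 miRNAs. miR-34a lies at 3.81 and 2.07 at the upper right and miR-744 at -4.05 and -3.33 at the lower left, with the let-7 family in green on the side of miR-744.

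Marker miRNAs of other cell types were looked at in the same libraries. All 8 leukocyte miRNAs were in the table, none at 0 in any library, and their sum in replicate 1 was 32063 normalised reads in controls, against 18605 to 22857 in the other 4, and 26075 in mutants, against 18085 to 22833. Of the 8, 5 lay higher in replicate 1 of both genotypes and 1 lower in both, and the most abundant in the sum was miR-146a. The sum of the 2 endothelial miRNAs in replicate 1 was 113035 in controls, against 151157 to 160119, and 114892 in mutants, against 141083 to 160253. That sum was mostly miR-126-3p, with log2 shifts of -0.58 in controls and -0.40 in mutants. The other arm, miR-126-5p, shifted by 0.64 and -0.046, so the list did not fall as a whole. For the 5 of 6 listed neural miRNAs in the table the sums were 958 against 1307 to 2024 and 849.9 against 1062 to 1446, although 4 of the 5 lay higher in replicate 1 of both genotypes. The sum of the 6 biliary miRNAs was 5636 in control replicate 1, within the 5035 to 36779 of the others, and 3165 in mutant replicate 1, below their 3711 to 7055. Of the 6, 5 lay lower in replicate 1 of both genotypes and 0 higher in both, with median log2 shifts of -0.62 and -0.61. Sums of the 6 hepatocyte miRNAs in replicate 1 were below those of the other controls but within the range of the other mutants. The erythroid list was above the other controls and within the range of the other mutants, the stellate list within the range in controls and above it in mutants, and the striated muscle list below it in controls and within it in mutants. Of the 5 stellate miRNAs in the table, 4 lay higher in replicate 1 of both genotypes and 1 lower in both. For the 3 striated muscle miRNAs these counts were 0 and 2, for the 6 hepatocyte miRNAs 2 and 1, and for the 3 erythroid miRNAs 1 and 1. Across these lists 0 markers in the table were at 0 in a library. The part of these cell types in the shifts of miR-34a and miR-744 was not tested.

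Across the 10 libraries the 2 miRNAs were near mirror images. The level of miR-34a divided by that of miR-744 was 13.7 in control replicate 1 and 14.8 in Tsc1 mutant replicate 1. In the other controls it lay between 0.0321 and 0.150, and in the other mutants between 0.128 and 1.22, the highest of these in replicate 3. When the libraries of a genotype were ordered by falling miR-34a and by rising miR-744, 6 of 10 libraries took the same place, and the others were neighbours exchanged within each genotype. After removal of the genotype means, Pearson's r between the 2 was -0.95 over 10 libraries, and -0.73 over the 8 without replicates 1. Spearman's rho was -0.85 and -0.81. The points share library and scaling factor, and the pair was chosen for its opposite shift, so these values are a description.

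**Figure D4:**
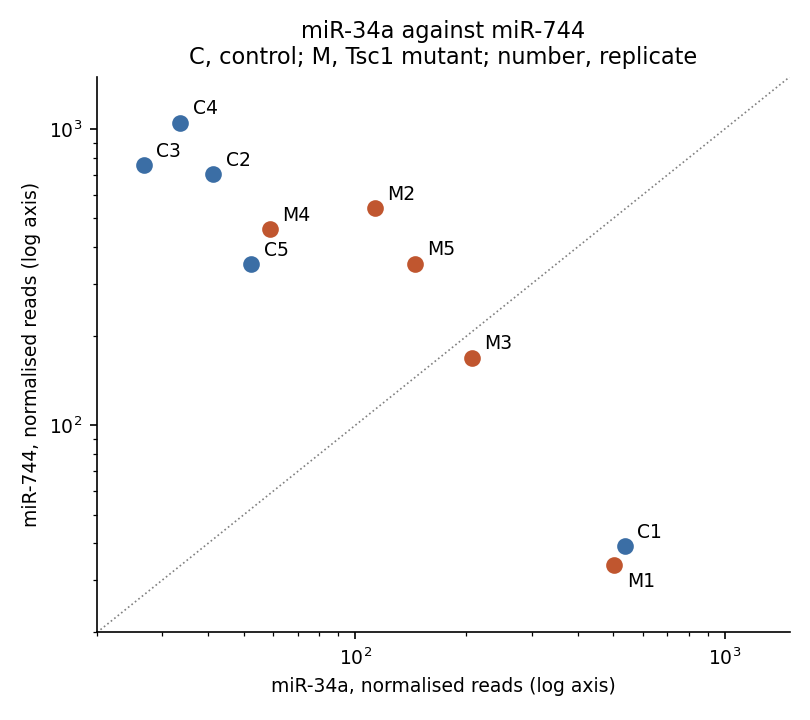
Level of miR-34a (x axis) against that of miR-744 (y axis) in normalised reads, both axes logarithmic, with 1 point per library; C marks controls, M Tsc1 mutants and the number the replicate. C1 and M1 lie far below the dotted line of equal levels with ratios of 13.7 and 14.8, M3 lies next to it at 1.22, and the other 7 libraries lie above it.

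The miRNAs most like each member were found among 244 others averaging 20 or more normalised reads, by Pearson's r of the deviations from genotype means. Over 10 libraries those most like miR-34a were miR-106b (r = 0.98), miR-511-3p (0.98), miR-29c (0.98), miR-193 (0.98) and miR-19a (0.97). Those most opposed were miR-351 (-0.99), miR-125b-5p (-0.98) and miR-151-5p (-0.96). Such values were common, as 30 of the 244 had r above 0.9 and 23 below -0.9, and they lean on both replicates 1. Over the other 8 libraries 3 had r above 0.9: miR-193 (0.97), miR-872 (0.94) and miR-500 (0.93). miR-29c (0.90) and miR-19a (0.87) came next, and miR-351 (-0.95), miR-125b-5p (-0.87) and miR-27b (-0.85) were most opposed.

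For miR-744 the most like over 10 libraries were miR-191, let-7c, miR-340-3p, miR-98 and miR-128, all with r = 0.99. The most opposed were miR-101a (-0.98), miR-542-3p (-0.98) and miR-186 (-0.97), among 32 miRNAs above 0.9 and 32 below -0.9. Over the other 8 libraries, miR-214 (0.96), let-7b (0.96), miR-191 (0.95), let-7c (0.95) and miR-125a-5p (0.95) were most like it, among 12 above 0.9. miR-23a (-0.96), miR-186 (-0.96) and miR-350 (-0.94) were most opposed.

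Sequences of some of the miRNAs from both sides are printed for comparison with those of the members, with seeds in capitals. They were matched to RefSeq by name or, where the table gives no arm, by the only arm found under that name. The upper 3 were like miR-744 or opposed to miR-34a, and the lower 2 the reverse.
let-7c-5p: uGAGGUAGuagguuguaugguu
miR-125a-5p: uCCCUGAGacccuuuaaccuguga
miR-125b-5p: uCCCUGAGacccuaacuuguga
miR-19a-3p: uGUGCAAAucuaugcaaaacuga
miR-542-3p: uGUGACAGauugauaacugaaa
miR-125a-5p and miR-125b-5p share 1 seed, which RefSeq's miR-351-5p also holds. None of the 5 shares a seed with miR-34a or miR-744. miR-19a-3p and miR-542-3p are 34.8% and 31.8% G and C, below miR-34a-5p, and let-7c-5p is at 40.9%, below miR-744-5p. miR-125a-5p and miR-125b-5p are at 50.0%, the same as miR-34a-5p and also below miR-744-5p. In G alone, let-7c-5p has 9, as miR-744-5p does. Over 113 miRNAs whose names matched a single RefSeq arm, the mean replicate 1 shift had a Pearson's r of -0.045 with GC share, -0.035 with G share, -0.013 with C share, 0.19 with A share and -0.15 with U share. That is across miRNAs, which are not independent, and neither member is among the 113 because their plain names match both arms.

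Between genotypes, the log2 fold change of miR-34a, Tsc1 mutant over control, was 1.30 ± 0.81 (SE) with all 10 libraries, or 2.46-fold. Leaving out control replicate 1 gave 2.06 ± 0.52, and leaving out the mutant one gave 0.88 ± 0.80. Without both it was 1.64 ± 0.38, or 3.13-fold, from 38.49 ± 10.97 normalised reads in controls to 131 ± 62.0 in mutants (SD, n = 4 each). There the groups do not overlap, with controls at 26.7 to 52.3 and mutants at 58.8 to 207. Groups that do not overlap with the mutants higher were found for 43 of 285 miRNAs in these 8 libraries, or 15.1%, and in either direction for 65, or 22.8%. With all 10 libraries neither member had groups that do not overlap, which 36 of 285 had, or 12.6%, with the mutants higher in 10.2%. The lowest mutant, replicate 4, and the highest control, replicate 5, have overlapping Poisson intervals, 42.2 to 79.8 and 38.97 to 68.8.

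For miR-744 the SE exceeded the difference with all libraries. Its log2 fold change was -0.78 ± 0.96 (SE) with all 10 libraries, with controls 1.72-fold above mutants. Leaving out control replicate 1 gave -1.60 ± 0.74, but leaving out the mutant one gave -0.12 ± 0.86. Without both it was -0.93 ± 0.42, from 715 ± 287 normalised reads in controls to 380.1 ± 160.5 in mutants (SD, n = 4 each), and the groups overlap. Control replicate 5, at 349.9, lay below mutant replicates 2, 4 and 5, at 541, 459 and 351.

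In the limma fit across all miRNAs with 10 libraries, 37 of 285, or 13.0%, passed an adjusted p of 0.05, and 0 of the 2 members did. Those 37 were 31 higher in mutants, 10.9% of all, and 6 lower, 2.11%. Without both replicates 1, 46 of 285, or 16.1%, passed (12.3% higher and 3.86% lower), and miR-34a was among them as higher in mutants while miR-744 was not. With control replicate 2 left out as well, 49 of 285, or 17.2%, passed (12.6% higher and 4.56% lower), again with miR-34a and without miR-744. The genotype contrast, with and without these libraries, was part of the rule, so nothing is read from these counts. Among the cell type markers, 1 of 6 hepatocyte miRNAs rose, miR-802, with a log2 fold change of 1.72 (limma adjusted p = 0.000258). Of 5 neural miRNAs 1 rose, miR-137, at 0.90 (limma adjusted p = 0.0395). It was called in 12 of 23 other settings and was lost without any 1 library other than control replicate 1. The other 4 were lower in mutants, miR-129-5p at -0.83, miR-9 at -0.67, miR-128 at -0.43 and miR-219-5p at -0.28. The median of the neural list was -0.43, and 3 of the 5 had an unadjusted limma p under 0.05. In the other 6 lists 0 passed by limma or by voom, with 2 at an unadjusted limma p under 0.05. Their part in the differences of the 2 miRNAs was not tested.

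**Figure D5:**
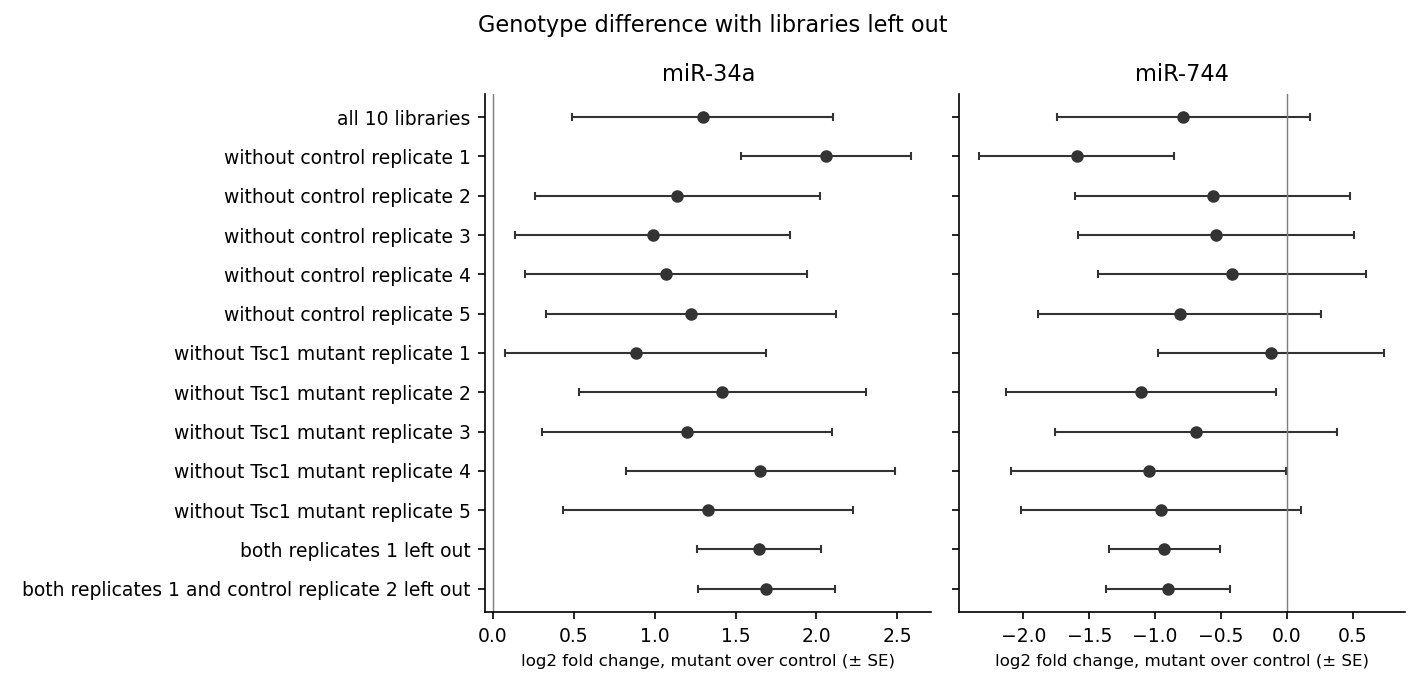
Log2 fold change of miR-34a and miR-744, Tsc1 mutant over control, with its SE (bars) in limma with all libraries, with each library left out and with replicates 1 left out. miR-34a stays above 0, between 0.88 and 2.06, and miR-744 below 0, between -1.60 and -0.12, with the extremes of both where a replicate 1 is left out.

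The relative of miR-34a in the table is miR-34c, which is transcribed with miR-34b from another p53-responsive gene. It was not used to choose the members. Its level in control replicates 1 to 5 was 397, 325, 95.7, 148 and 118 normalised reads, and in Tsc1 mutant replicates 1 to 5 it was 336, 120.5, 119.9, 120.5 and 74.5. Replicate 1 was again the highest library of both genotypes, by shifts of 1.37 and 1.65 on the log2 scale, but control replicate 2 was nearly as high. The log2 difference between genotypes was -0.46 ± 0.48 (SE; limma adjusted p = 0.700), and -0.51 ± 0.37 without both replicates 1. Single libraries moved it by over 1.5 times: among controls, leaving out replicate 1, 2 or 3 gave -0.18, -0.26 and -0.69, and among mutants, leaving out replicate 1 or 5 gave -0.79 and -0.25. Leaving out both replicates 1 together with control replicate 2 gave -0.15. That sign is opposite to miR-34a, and the difference between the 2 miRNAs was not tested. Its deviations had an r of 0.70 with those of miR-34a over 10 libraries and 0.044 over the 8 without replicates 1.

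Other miRNAs tied to p53, by transcription or processing, did not pass the test between genotypes. Of 15 listed beside miR-34a, 12 were in the table, and 0 rose and 0 fell by limma or by voom. Over all 285 miRNAs, 31 rose and 6 fell by limma. At an unadjusted limma p under 0.05 there were 2 of the 12, against 64 of all 285. Nothing about p53 is read from these counts. Their median log2 fold change was -0.06, the same as that of all 285 miRNAs. The most abundant were the hepatocyte miR-192 at -0.01, smooth muscle miR-143 at -0.39 and miR-194 at -0.03. In replicate 1, 4 of the 12 lay higher in both genotypes and 3 lower in both.

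Of 13 other miRNAs linked to liver injury and fatty liver, 1 rose and 0 fell, against 31 and 6 of all 285. Their median log2 difference was -0.01. The one that rose was miR-29a, a repressor of collagen genes, from 92084 ± 7801 to 116048 ± 5673 normalised reads (SD, n = 5 each). That is a log2 difference of 0.34 ± 0.10 (SE; limma adjusted p = 0.0395), and it was called in 10 of 23 other settings, with adjusted p from 0.00527 to 0.117. The call was lost when any 1 library other than control replicate 1 was left out, and under every rescaling tried. miR-21, which is induced in injured liver, was at -0.12 and miR-122 at -0.21. Without both replicates 1, miR-222 also passed, as lower, at -0.65 (limma adjusted p = 0.0425).

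miR-744 was set beside 29 other miRNAs that lie in introns of protein-coding genes. Of these 0 rose and 1 fell, against 31 and 6 of all 285, and their median log2 difference was -0.02. The one that fell was miR-149, which lies in an intron of Gpc1, from 384 ± 195 to 112 ± 16.6 normalised reads (SD, n = 5 each). That is a log2 difference of -1.67 ± 0.29 (SE; limma adjusted p = 0.00149), and it was called in 23 of 23 other settings. The most abundant were miR-378 at 0.44, miR-126-3p at -0.02 and miR-26a at 0.10. In replicate 1, 15 of the 29 lay lower in both genotypes and 10 higher in both, so the direction of miR-744 was not shared by all.

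Of the 9 let-7 miRNAs, 0 passed with 10 libraries in limma on the deposited scaling or by voom. Over all 285 miRNAs, 37 passed by either. An unadjusted limma p under 0.05 was found for 1 of the 9, against 64 of all 285. Their median log2 fold change was 0.01. The most abundant were let-7f at 0.31, let-7g at 0.41 and let-7a at 0.19. let-7g was called higher in 6 of 23 other settings, with limma adjusted p from 0.0124 to 0.193. These were scaling to the same sum, TMM scaling, array weights, the replicate block and both sets without replicates 1. Without both replicates 1 it was at 0.35 (limma adjusted p = 0.0153).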

How the data were processed

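Small RNA libraries from 10 mouse livers, 5 per genotype, were analysed, each library being 1 liver sample per the labels. The deposited values are a normalised signal, miRNA reads scaled by the authors with a single factor for each library, for which DESeq is named in the submitters' processing notes. For the aligner, miRNA annotation, build and filters, the sources used here give nothing. In each library 100% of the values were whole multiples of 1 step within 0.001, worth 0.711 to 1.68 normalised reads, which gave the reads behind each value. The labels do not say how separate the samples are, so p-values measure only the spread between them, which may be partly technical.

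Values were compared as log2(value + 1) with limma 3.58.1 in R 4.3.3 (linear model of genotype, intensity trend, Benjamini-Hochberg adjustment over 285 miRNAs, threshold 0.05). A mean of at least 5 normalised reads was required, which 285 met. Fold changes on this scale understate changes of miRNAs with few reads. The members and lists were chosen with earlier results of these data known. Named are the members, their family, the 5 most like and 3 most opposed miRNAs, neighbours in level, and the 3 most abundant and any passing miRNAs of each list. Alternatives were other pseudocounts, filters and scalings, limma variants, voom on whole reads, a replicate block and left-out libraries. Figures were drawn with matplotlib 3.10.9.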

Additional observations from a re-analysis of the deposited data

Results flagged for a closer look

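In each genotype, groups of 5 libraries were searched for a highest or lowest library standing apart by a gap that is large for the group's range, over 56 miRNAs and 112 groups. Chance marks about 1 in 20 such groups. Of the 23 found, 21 were in a replicate 1, but the members were chosen for their shift there and many of the other miRNAs for their likeness to them, so the number is a description and is not set against chance.

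miR-34a in control replicate 1 was 537 normalised reads, where the next control had 52.3. No library of miR-744 stood apart by this measure on the linear scale. The related miR-34c stood apart in Tsc1 mutant replicate 1, at 336 against a next value of 120.5. High in control replicate 1 were miR-106b at 911, miR-511-3p at 305, miR-29c at 7224, miR-193 at 137, miR-19a at 2012, miR-500 at 225, miR-542-3p at 403, miR-145 at 4489, miR-326 at 343 and miR-425 at 684 normalised reads. The miR-17 cluster members miR-17 at 2564, miR-18a at 47.9, miR-20a at 10452 and miR-19b at 9717 were high there too. Low in control replicate 1 were miR-351 at 990.1 and miR-126-3p at 95158.5. In Tsc1 mutant replicate 1, miR-511-3p was high at 219.9 and miR-101a at 261431, and let-7g was low at 289614.

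Outside replicate 1, miR-720, an older entry regarded as a transfer RNA fragment, was high in control replicate 5 at 2916 and in Tsc1 mutant replicate 2 at 1858, where the next values were 52.2 and 79.9 normalised reads. Tsc1 mutant replicate 2 also had the highest miR-744 of the mutants, at 541. Control replicate 5, outside replicate 1, had the highest miR-34a and the lowest miR-744 of the controls, at 52.3 and 349.9.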

How the results depend on the processing

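The log2 fold change of miR-34a was above 0 in 23 of 23 other settings, from 0.88 to 2.06, and miR-744 was below 0 in 23 of 23, from -1.60 to -0.12. The changes of filter, the fit without the intensity trend and the replicate block cannot alter a fold change, only its SE or adjusted p. The contrast was also part of the rule, so these counts are a description. With array weights they were at 1.70 and -0.83. Leaving out both replicates 1 lowered the SD within genotype to 0.61 for miR-34a and 0.70 for miR-744, by removal of the libraries that hold the shift. Of 60 listed miRNAs beside the members, 1 was called higher and 1 lower with all libraries. The number higher was 0 with upper quartile scaling, 0 without the intensity trend, 5 with array weights, 2 without both replicates 1 and 2 with control replicate 2 left out as well, and 0 to 3 with single libraries left out. With scaling to the same sum and with TMM scaling the number higher was still 1, but it was let-7g and not miR-29a. The number lower was 2 with array weights, 2 without both replicates 1, 2 with control replicate 2 left out as well, and 1 to 2 with single libraries left out. The cause was not tested. Over all 285 miRNAs, array weights called 40 higher and 23 lower, against 31 and 6, and the filter at a mean of 50 normalised reads called 19 and 3. Deviations of libraries numbered 1 to 5 had correlations of 0.81, 0.16, -0.021, 0.46 and 0.048 between genotypes, and 4 of 10 libraries were closest to their own number. The labels name no shared source and not every pair was correlated, so pairing was not assumed, although some numbers deviate together. With the replicate block, the listed miRNAs called higher numbered 3, let-7g among them, and the log2 fold changes were 1.30 ± 0.38 and -0.78 ± 0.31 (SE). The test on whole reads with a count model was not run. Counting error limits miR-34a in controls, at 20 to 58 reads outside replicate 1.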

Other observations

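Several miRNAs that lie side by side in the genome shifted unequally in replicate 1. These were chosen after their values were seen, and no explanation was tested. The 6 miRNAs of the table that come from the Mir17 to Mir92 cluster, whose hairpins span 836 bases, were set side by side. Their shifts on the log2 scale in control and mutant replicate 1 were 0.67 and 0.26 for miR-17, 1.98 and 1.05 for miR-18a, 2.96 and 1.75 for miR-19a, 1.12 and 0.77 for miR-20a and 2.79 and 1.47 for miR-19b, but -1.29 and -0.37 for miR-92a. miR-19b and miR-92a also have copies on chromosome X, so their levels do not come from this cluster alone.

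miR-191, among the miRNAs most like miR-744, shifted by -1.89 and -1.43, while miR-425, whose hairpin lies within the same 543 bases, shifted by 0.52 and 0.15. let-7c, also like miR-744, shifted by -2.13 and -1.49, while miR-99a, within 815 bases of it, shifted by -0.39 and 0.013. let-7c has another locus. miR-34a and miR-744 have no such neighbour within 10000 bases, so the same comparison could not be made for them.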
